A study of Mus musculus with 7 samples.

Results

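The endothelin system of the kidney filter was followed through 5 genes: Edn1 and Edn3, which encode the peptides endothelin-1 and endothelin-3, Ednra and Ednrb, which encode the type A and type B receptors, and Ece1, which encodes an endothelin-converting enzyme. They were taken by name from 12958 gene symbols measured in isolated mouse glomeruli, and all 5 were measured. The choice was made with the difference of Edn3 between the groups already known. The differences of these genes between the groups are therefore given as a description with no test.

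Glomerular RNA was sequenced from 3 knockdown mice and 4 control mice, 1 library per animal. The knockdown mice carried an siRNA transgene against Shroom3, an actin-binding protein of cell junctions, and the control mice were littermates without the siRNA sequence. All were males of the strain labelled BALB-C aged 14 weeks and had doxycycline, given with food and drinking water, during the last 6 of those weeks, so the controls had the drug too. The sources used here name neither the promoter nor the cell types that drive the transgene. The study's title concerns Shroom3, the kinase Fyn, phosphorylation of nephrin and albuminuria.

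Endothelins are made as long precursors that proprotein convertases such as furin cut to inactive big endothelins, and endothelin-converting enzyme then releases the short active peptide. The type A receptor responds mainly to endothelin-1 and drives contraction through Gq proteins and calcium, while the type B receptor binds endothelin-1 and endothelin-3 alike and, on endothelial cells, couples to nitric oxide release and takes the peptide out of the circulation. In the glomerulus, endothelin-1 is known for constricting vessels and mesangial cells and for injuring podocytes, and in the collecting duct for promoting salt excretion. Endothelin-3 acting on the type B receptor is best known for the development of melanocytes and of the enteric nervous system.

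The coding stretches of the active peptides are shown because the results turn on how differently the ligand genes behaved, and because reads from near-identical stretches could be shared between them. Each stretch has 63 bases and 21 codons and lies in exon 2 of its gene, that of Edn1 at chr13:42303649-42303711 and that of Edn3 at chr2:174761749-174761811, both on the plus strand of GRCm38. The sequences come from the GENCODE M21 transcripts, 5′ to 3′, and capitals mark the bases that differ between the genes.
Edn1: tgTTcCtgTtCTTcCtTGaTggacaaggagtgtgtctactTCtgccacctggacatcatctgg
Edn3: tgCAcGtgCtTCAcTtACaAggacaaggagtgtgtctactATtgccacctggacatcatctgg
The stretches were identical at 50 of 63 bases (79.4%), and 15 of the 21 codons encoded the same amino acid. The differences cluster in the first part of the peptide, while the last part, which all endothelins share, was nearly the same. Over whole transcripts, the longest run that an Edn1 and an Edn3 transcript had in common was 21 bases, and for Ednra and Ednrb it was 15 bases.

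The targeted transcript was not detectably lower. Shroom3 stood at log2 values of 10.80, 10.91 and 10.89 in the knockdown libraries and at 10.94, 10.85, 11.36 and 11.06 in the control libraries, and the groups overlapped. The log2 difference, knockdown minus control as throughout, was -0.19 (limma with Benjamini-Hochberg adjustment, adjusted p = 0.417), and without control replicate 3 it was -0.09. The groups are therefore named as labelled. The titles of 5 libraries start with G (2 knockdown, 3 control) and those of the others, knockdown replicate 3 and control replicate 4, with CB6. This split of titles is called title style here, and what it stands for is not given. Over all genes the deviations of the CB6 libraries from their group means were nearly mirror images (correlation across genes -0.958, genes not being independent replicates), so these libraries did not deviate independently of each other. As a check of the tissue, the podocyte marker Nphs1 averaged 12.47 in knockdown and 12.58 in control libraries. Proximal tubule RNA was present too: the summed level of 22 proximal tubule markers was 18.14 to 18.51 in knockdown and 18.53 to 18.93 in control libraries (log2), and that of 22 podocyte markers 18.22 to 18.45 and 18.12 to 18.55.

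Among the ligands, Edn3 was about 4.8-fold higher in glomeruli of knockdown mice, with the logarithm read as base 2. Its log2 expression was 9.22, 9.27 and 9.71 in the 3 knockdown libraries and 7.31, 7.50, 7.26 and 6.49 in the 4 control libraries. Every knockdown library lay above every control library, and the CB6 libraries held the highest knockdown and the lowest control value. The mean was 9.40 ± 0.27 in knockdown and 7.14 ± 0.45 in control libraries (SD, n = 3 and 4), a log2 difference of 2.26 (SE 0.24, 95% interval 1.72 to 2.81). Edn3 lies on chromosome 2 (ENSMUSG00000027524.9, GRCm38, 174760619 to 174784042, plus strand), and its 4 annotated transcripts are not told apart by 1 value per gene. Its mean stood at the 55.0th percentile of all genes in knockdown and at the 13.1st in control libraries. In these bulk samples, a change in the number of cells of a type and a change in RNA per cell cannot be told apart.

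The difference of Edn3 was present within both title styles and larger in the CB6 pair. It was 1.89 within the 5 libraries titled G and 3.23 within the CB6 pair, which has 1 library per group and no replicate check. With 1 library left out it was lowest, 2.05, without control replicate 4 and highest, 2.38, without control replicate 2. By size of the log2 difference in either direction, Edn3 ranked 17th of 12958 genes. Just above it were Nfil3 (-2.37), Gm6300 (-2.29) and Slc22a30 (-2.29), and just below it Slc22a12 (-2.26), Opcml (-2.25) and H2-Q6 (-2.20), so its immediate neighbours in size were all lower in knockdown. Among the 129 genes higher in knockdown and past the threshold (adjusted p under 0.05, limma with Benjamini-Hochberg adjustment), Edn3 had the second largest difference. These ranks are a description, since Edn3 was chosen with its difference known.

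Edn1, the main endothelin of vessels and of the renal medulla, did not share this difference. Its log2 expression was 7.01, 7.53 and 7.52 in the knockdown libraries and 7.76, 7.10, 7.05 and 7.05 in the control libraries. The highest value was that of control replicate 1, the other controls lay close together, and the groups overlapped. The mean was 7.35 ± 0.30 in knockdown and 7.24 ± 0.35 in control libraries (SD, n = 3 and 4), and the log2 difference was 0.11 (SE 0.21), with a 95% interval of -0.37 to 0.60. The interval allows a moderate difference in either direction. The value rested on single libraries: it was 0.29 without control replicate 1, also 0.29 without knockdown replicate 1, -0.04 within the libraries titled G and 0.47 within the CB6 pair. Edn1 is on chromosome 13 (ENSMUSG00000021367.8, 42301476 to 42307990, plus strand), where an antisense gene, Gm47118, overlaps it, and since no source used here says whether counting used strand, reads of such pairs cannot be told apart.

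The balance of the ligands inside each library followed Edn3. Per kilobase of exons, the log2 level of Edn3 minus that of Edn1 was 1.27, 0.80 and 1.25 in the knockdown libraries and -1.40, -0.55, -0.73 and -1.51 in the control libraries. On this scale the sign was positive in all 3 knockdown libraries and negative in all 4 control libraries. On the scale as deposited, with no length correction, the same difference was 2.21, 1.74 and 2.19 in the knockdown libraries and -0.46, 0.40, 0.21 and -0.57 in the control libraries. The sign in controls thus depended on the length correction, while the groups did not overlap on either scale. Per kilobase the means were 1.10 ± 0.27 in knockdown and -1.05 ± 0.48 in control libraries (SD, n = 3 and 4). Edn2, the other ligand gene, was not analysed here.

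**Figure D1:**
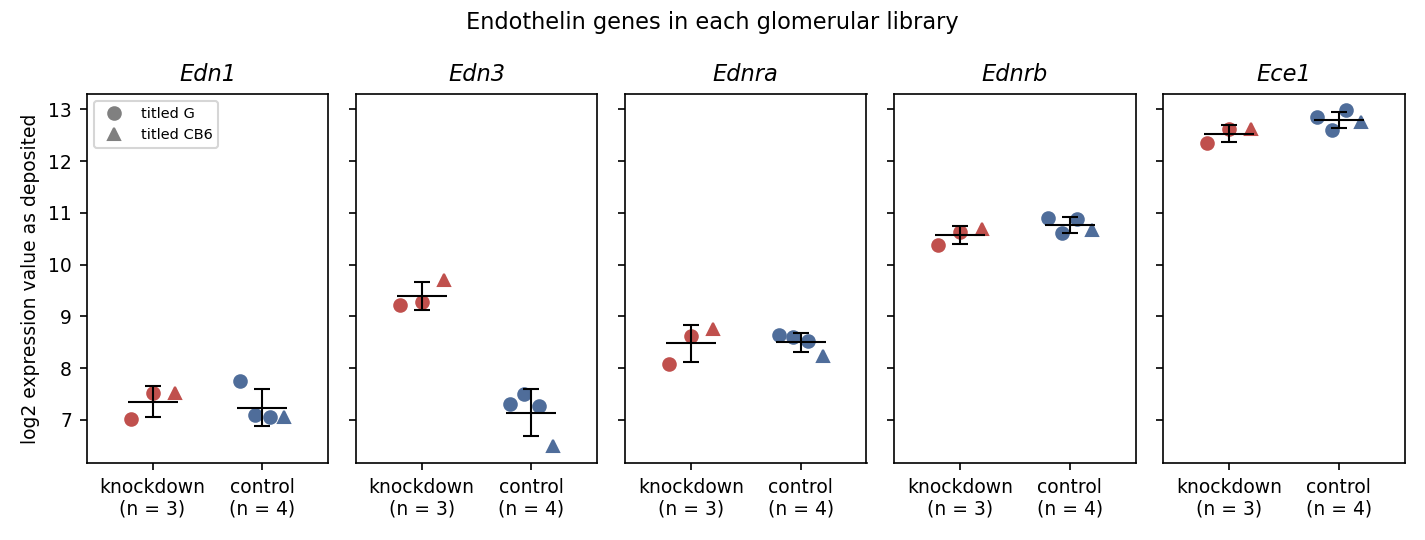
Log2 expression value of each endothelin gene (vertical axis) in the 3 knockdown and 4 control libraries, circles for titles starting with G and triangles for CB6, with the group mean and SD as black bars. Edn3 is between 9.22 and 9.71 in knockdown and between 6.49 and 7.50 in control libraries, while the groups of the other genes overlap.

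Neither receptor gene showed a difference comparable to that of the ligand. Ednrb, the receptor that binds endothelin-3, had log2 values of 10.38, 10.63 and 10.69 in the knockdown libraries and 10.90, 10.61, 10.89 and 10.67 in the control libraries. Knockdown replicate 1 was lowest, and the other knockdown libraries lay within the range of the controls. The mean was 10.57 ± 0.17 in knockdown and 10.77 ± 0.15 in control libraries (SD, n = 3 and 4), a log2 difference of -0.20 (SE 0.10, 95% interval -0.43 to 0.03). It was -0.30 within the libraries titled G and 0.02 within the CB6 pair, and -0.11 without knockdown replicate 1. Ednrb is on chromosome 14 (ENSMUSG00000022122.15, 103814625 to 103844402, minus strand).

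Ednra, the contractile receptor of smooth muscle and mesangial cells, had log2 values of 8.08, 8.62 and 8.75 in the knockdown libraries and 8.64, 8.60, 8.53 and 8.23 in the control libraries. The knockdown libraries held both the lowest and the highest value. The mean was 8.48 ± 0.36 in knockdown and 8.50 ± 0.18 in control libraries (SD, n = 3 and 4), a log2 difference of -0.02 (SE 0.17, 95% interval -0.41 to 0.38). The sign changed with the libraries used: -0.24 within those titled G, 0.52 within the CB6 pair, and 0.19 without knockdown replicate 1. Ednra is on chromosome 8 (ENSMUSG00000031616.7, 77663031 to 77724464, minus strand), and 4933431K23Rik overlaps it on the other strand.

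Of the receptor transcripts, that of the type B receptor was the more abundant in every library. Per kilobase of exons, Ednrb stood 2.66, 2.37 and 2.30 log2 units above Ednra in the knockdown libraries and 2.63, 2.37, 2.72 and 2.80 above it in the control libraries. The groups overlapped, with means of 2.44 ± 0.19 (SD, n = 3) and 2.63 ± 0.19 (SD, n = 4).

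Ece1, which cuts big endothelins to the active peptide, had a slightly lower mean in knockdown libraries. Its log2 values were 12.34, 12.62 and 12.62 in the knockdown libraries and 12.86, 12.59, 12.98 and 12.75 in the control libraries. Control replicate 2 lay below 2 of the 3 knockdown libraries, so the groups overlapped. The mean was 12.53 ± 0.16 in knockdown and 12.79 ± 0.16 in control libraries (SD, n = 3 and 4), a log2 difference of -0.27 (SE 0.11). The 95% interval of -0.51 to -0.03 is for this gene alone, and Ece1 was not past the threshold over all genes. The difference was -0.33 within the libraries titled G, -0.13 within the CB6 pair and -0.18 without knockdown replicate 1. Ece1 is on chromosome 4 (ENSMUSG00000057530.14, 137862237 to 137965229, plus strand), with the antisense gene Gm13012 inside its span.

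Of the 5 genes, 1 passed an adjusted p of 0.05 over all genes, Edn3, against a background of 0.996% of genes past it in that direction (3.02% in either direction; limma with Benjamini-Hochberg adjustment). With title style as a covariate 1.47% of all genes passed, and in the libraries titled G alone 0.309% did. The log2 difference of Edn3 in these fits was 2.28 and 1.89, given as a description. The groups of 1 of the 5, again Edn3, did not overlap, against 18.4% of all genes. The genes were chosen on this contrast, so nothing is read from these counts. The median log2 difference of the 5 genes was -0.02, against 0.02 over all genes.

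**Figure D2:**
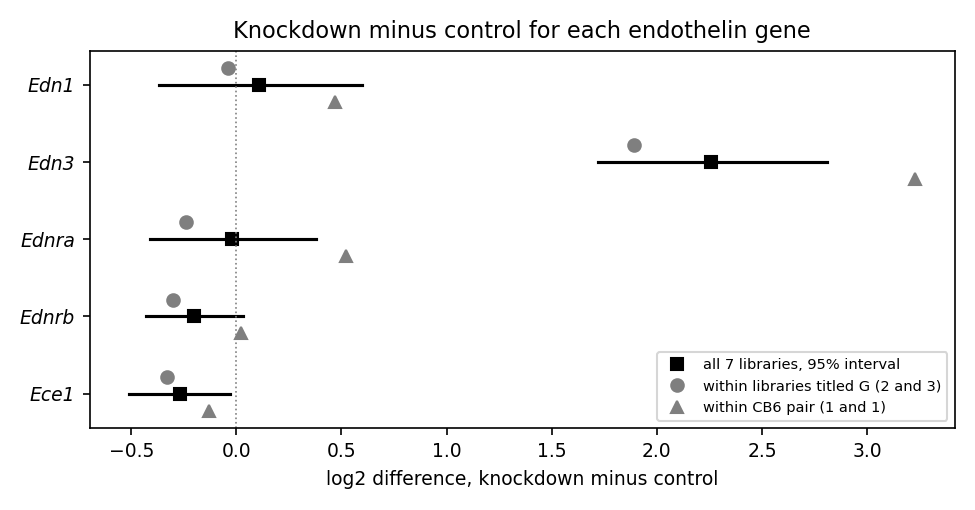
Log2 difference, knockdown minus control (horizontal axis), of each endothelin gene: squares with 95% intervals for all 7 libraries, circles within the libraries titled G and triangles within the CB6 pair. Edn3 is at 2.26, with 1.89 and 3.23 within the title styles, and the others lie between -0.27 and 0.11.

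The order of the genes by level was set per kilobase of exons, since the deposited values rose with gene length, with a median log2 value of 10.21 in the longest of 5 classes of genes by exon length (median 10199 bases) and 8.35 in the shortest (median 1887 bases). In knockdown libraries the order by mean log2 level per kilobase was Ece1 (10.12 ± 0.16), Ednrb (8.47 ± 0.17), Edn3 (7.36 ± 0.27), Edn1 (6.26 ± 0.30) and Ednra (6.03 ± 0.36; SD, n = 3). In control libraries it was Ece1 (10.39 ± 0.16), Ednrb (8.68 ± 0.15), Edn1 (6.15 ± 0.35), Ednra (6.05 ± 0.18) and Edn3 (5.10 ± 0.45; SD, n = 4). Edn3 thus came before Edn1 and Ednra in knockdown and last in control libraries. Edn1 and Ednra, neighbours in the order, overlapped in both groups (5.91 to 6.43 and 5.62 to 6.30 in knockdown, 5.95 to 6.67 and 5.78 to 6.18 in control). They changed places in both groups with another length measure. The other neighbours did not overlap in either group.

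Ednrb and Ece1 kept step with markers of glomerular endothelial cells. Likeness was measured as the root mean square difference between library profiles, each centred on its mean over the 7 libraries, so that a small value means similar ups and downs. It was 0.0567 log2 units between Ednrb and Ece1, the smallest of the 10 pairs of endothelin genes. Against the summed level of 17 endothelial markers it was 0.0621 for Ednrb and 0.0781 for Ece1, the smallest among the 13 measured marker lists for both genes. That summed level was 16.76, 17.05 and 17.07 in knockdown and 17.40, 16.89, 17.29 and 17.10 in control libraries, with control replicate 2 lowest among the controls, as for both genes.

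Set against these markers, a comparison chosen after the values were seen, the small differences of Ednrb and Ece1 shrank. The profiles hold the group difference, so shrinking against the nearest list was partly set by that choice. Ednrb minus the summed endothelial level averaged -6.40 ± 0.03 in knockdown and -6.40 ± 0.09 in control libraries (SD, n = 3 and 4), and Ece1 minus it -4.44 ± 0.02 and -4.37 ± 0.11. The difference of Edn1 did not shrink. Edn1 minus the same level averaged -9.61 ± 0.13 and -9.93 ± 0.27, further apart than its own means of 7.35 and 7.24. No endothelial marker of the 17 passed the test (5 at an unadjusted p under 0.05, against 18.4% of all genes; limma). Their median log2 difference was -0.23, and 16 had a negative difference, where 43.8% of all genes did. The part of the endothelial share in the values of Ednrb and Ece1 was not tested. Ednra minus the summed level of 11 mesangial markers averaged -7.75 ± 0.28 in knockdown and -8.05 ± 0.41 in control libraries (SD, n = 3 and 4), and minus that of 9 smooth muscle and renin cell markers -5.15 ± 0.25 and -4.90 ± 0.39, with overlapping groups in both.

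No marker list had a summed level that differed as Edn3 did. The largest of the 13 differences in summed level was 0.65, for 2 red cell markers, Slc4a1, which intercalated cells share, and Alas2, which fell. Markers of intercalated cells, the acid-base cells of the collecting duct, included 3 of 12 that rose and none that fell: Slc4a1 (log2 difference 0.86), the water channel Aqp6 (1.12) and the proton pump subunit Atp6v1g3 (0.56; limma with Benjamini-Hochberg adjustment, adjusted p = 0.017, 0.0321 and 0.0447). The summed level of all 12 was 14.34 to 14.45 in knockdown and 14.09 to 14.51 in control libraries and overlapped. This sum leans on Car12, the highest of the 12, which averaged 12.97 in knockdown and 13.27 in control libraries. Car12 alone had a negative log2 difference (-0.30, not past the threshold). The other 11 were positive, where 43.8% of all genes were negative, and the median of the list was 0.23. With title style as a covariate, 1 of the 3 that rose still passed, and in the libraries titled G alone none did. No principal cell marker of 12 passed (1 at an unadjusted p under 0.05), and the summed level of these cells, a known source of endothelin-1, was 13.83 to 14.12 and 13.71 to 14.28. Of 22 proximal tubule markers, 10 fell and 1 rose, and their summed level was lower in each knockdown library. Those that fell with the smallest adjusted p were Cyp2e1, Slc22a12, Cyp4b1 and Kap (log2 differences of -3.26, -2.26, -1.06 and -2.19), and the one that rose was Cyp2d26 (0.85). With title style as a covariate 9 of these 11 passed, and in the libraries titled G alone 2 did. Markers of podocytes (3 of 22 fell: Clic3, Magi2 and Col4a3) and mesangial cells (2 of 11 fell: Sfrp2 and Serpine2) moved as well. With title style as a covariate, Clic3 and Magi2 passed and Col4a3, Sfrp2 and Serpine2 did not (adjusted p = 0.0787, 0.0644 and 0.0967), and in the libraries titled G alone no podocyte or mesangial marker did. None passed in smooth muscle and renin cells, parietal epithelium, loop and distal tubule, immune and nerve lists (limma with Benjamini-Hochberg adjustment), where 2 of 9, 3 of 9, 4 of 13, 1 of 6 and 1 of 3 had an unadjusted p under 0.05. Over all genes, 2.02% fell, 0.996% rose and 18.4% had an unadjusted p under 0.05. What part these cells have in the difference of Edn3 was not tested. Markers of urothelium were not analysed here.

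**Figure D3:**
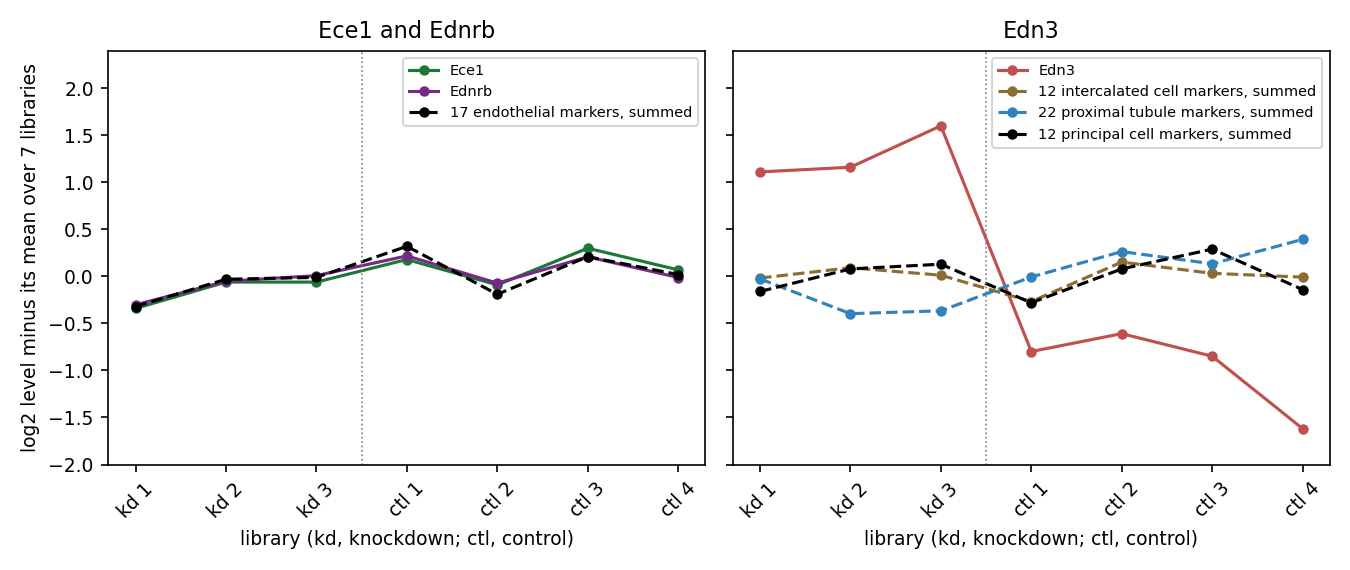
Log2 level minus its mean over the 7 libraries (vertical axis) for each library (horizontal axis, knockdown libraries left of the dotted line; lines join the points of 1 gene or list and imply no order). Ece1 and Ednrb stay close to the 17 summed endothelial markers, while Edn3 differs by 2.26 between the groups and no collecting duct or proximal tubule list does so in that direction.

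Profiles centred over all 7 libraries hold the group difference of Edn3, so the genes nearest to it are by their choice higher in knockdown. They were Csrnp3 (root mean square difference 0.330 log2 units over 7 libraries; log2 difference 1.83), the chloride intracellular channel gene Clic6 (0.393; 2.12), the glutathione transferase Gstm5 (0.417; 2.17), the glucuronosyltransferase Ugt1a2 (0.424; 1.81) and the receptor gene Tnfrsf19 (0.441; 1.47). Even the nearest profile was farther from that of Edn3 than the nearest ones were from the other endothelin genes. For Ednrb these were Marcksl1 (0.0283), Tcte1 (0.0322) and Sdc4 (0.0345), for Ece1 Myo1c (0.0352), Nuak1 (0.0385) and Csrp1 (0.0394), for Ednra Mpp2 (0.0414), Lix1 (0.0736) and Ndor1 (0.0736), and for Edn1 Tshb (0.0884), Rpa2 (0.0965) and Atp8b3 (0.107). The distance grows with the size of a gene's own differences, which are largest for Edn3.

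The chromosomal neighbours of Edn3 did not share its difference. Within 500 kb, 5 genes were measured, all on the side of lower coordinates, and none passed the test: Prelid3b, the nearest at 287.5 kb (log2 difference 0.04), Atp5e (0.07), Ctsz (-0.04), Nelfcd (-0.08) and the imprinted Gs protein gene Gnas (-0.10), with adjusted p from 0.544 to 0.902 (limma with Benjamini-Hochberg adjustment). Annotation places 14 protein-coding genes in that window, and the others, those on the other side among them, were not analysed here.

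Genes around the pathway were examined in 6 lists. Together 3 of 98 measured genes passed, all lower in knockdown, which is 3.06% against 3.02% of all genes in either direction and 2.02% in that one. At an unadjusted p under 0.05 there were 26 of 98, against 18.4% of all genes (limma). The count of 3 became 0 without knockdown replicate 2 or 3 or control replicate 4, and 6 without control replicate 2. The convertases and peptidases that make and degrade endothelins did not pass the test in any of 6 cases (0 at an unadjusted p under 0.05; limma). Neprilysin (Mme), the peptidase that degrades endothelins, averaged 12.71 ± 0.02 in knockdown and 12.65 ± 0.08 in control libraries (SD, n = 3 and 4). Furin averaged 11.14 ± 0.09 and 11.29 ± 0.36, a difference of -0.15 that vanished without control replicate 3. The second converting enzyme gene, Ece2, was not analysed here.

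Of 31 genes of G protein, calcium and contraction signalling, 1 fell, Gna12, which encodes a G protein alpha subunit. It stood at 10.41, 10.50 and 10.44 in the knockdown libraries and at 10.78, 10.81, 11.01 and 10.97 in the control libraries, without overlap. The log2 difference was -0.44 (SE 0.07; limma with Benjamini-Hochberg adjustment, adjusted p = 0.0169). It also passed with title style as a covariate (adjusted p = 0.0426) and did not within the libraries titled G alone (-0.41, adjusted p = 0.236). Leaving out knockdown replicate 1, 2 or 3 or control replicate 4 ended the call at adjusted p of 0.064, 0.0588, 0.0804 and 0.0651, with differences between -0.47 and -0.42. The median over the list was -0.02, 8 of 31 had an unadjusted p under 0.05, and 17 of the 31 were negative, where 43.8% of all genes were. None of 10 receptor kinases, arrestins and RGS proteins, which end receptor signals, passed (2 at an unadjusted p under 0.05). Arrb1, an arrestin, averaged 12.42 ± 0.22 in knockdown and 12.70 ± 0.19 in control libraries (SD, n = 3 and 4), and Rgs2, which curbs Gq signals, 11.39 ± 0.16 and 11.58 ± 0.08.

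On the side of relaxation, 1 of 19 nitric oxide, cGMP and prostanoid genes fell and none rose. This was Cav1, the caveolin that binds endothelial nitric oxide synthase, at 11.26, 11.31 and 11.40 in the knockdown libraries and 11.64, 11.65, 11.97 and 11.73 in the control libraries. Its log2 difference was -0.43 (SE 0.09; limma with Benjamini-Hochberg adjustment, adjusted p = 0.0394). Nos3 itself, the endothelial nitric oxide synthase, averaged 7.73 in knockdown and 7.67 in control libraries. The median over the list was -0.07, and 4 of 19 had an unadjusted p under 0.05.

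Of 16 genes of other vasoactive peptides and their receptors, 1 fell, Adm, which encodes the vasodilator adrenomedullin. It stood at 9.10, 8.62 and 8.81 in the knockdown libraries and at 9.38, 9.26, 9.54 and 9.55 in the control libraries, so every knockdown library lay below every control library. The log2 difference was -0.59 (SE 0.13; limma with Benjamini-Hochberg adjustment, adjusted p = 0.0465). The genes of its receptor, Calcrl and Ramp2, had differences of -0.30 and -0.20 and Ramp3 one of -0.59, none past the threshold (adjusted p = 0.115, 0.337 and 0.0619, limma). The median over the list was -0.19, and 11 of 16 were negative, against 43.8% of all genes. At an unadjusted p under 0.05 there were 9 of 16, against 18.4% of all genes, and 6 of 16 did not overlap between the groups, against 18.4%. Neither Cav1 nor Adm passed with title style as a covariate (adjusted p = 0.0847 and 0.0968) or in the libraries titled G alone (0.25 and 0.372), or with no intensity trend in the fit (0.0678 and 0.0613; limma). Cav1 was also lost without knockdown replicate 1, 2 or 3 or control replicate 4 (adjusted p = 0.0943 to 0.149), and Adm without knockdown replicate 2 or 3 or control replicate 1, 3 or 4 (adjusted p = 0.0726 to 0.159). In the settings that ended the call, the log2 difference was between -0.47 and -0.39 for Cav1 and between -0.61 and -0.48 for Adm. The endothelial markers had the median log2 difference of -0.23 given above, and their part in the values of Cav1 and Adm was not tested.

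Of 16 transcription factors known to act on endothelin genes, none passed (3 at an unadjusted p under 0.05, against 18.4% of all genes; limma). The median was 0.09, and 12 of 16 were positive and 4 negative, where 43.8% of all genes were negative. Nfat5, the osmotic stress factor, averaged 12.88 ± 0.01 in knockdown and 12.66 ± 0.05 in control libraries (SD, n = 3 and 4), with no overlap. Its adjusted p was 0.0555 (limma with Benjamini-Hochberg adjustment), and it passed without control replicate 1 (adjusted p = 0.0488) and among genes above the median by mean (adjusted p = 0.0466). The hypoxia factor Epas1 averaged 13.49 ± 0.21 and 13.58 ± 0.27, and its difference turned positive without knockdown replicate 1. The widest difference of the list, chosen after its values were seen, was that of Fos, a part of the AP-1 factor that acts on the Edn1 promoter, at 9.76, 10.64 and 10.53 in knockdown and 9.69, 9.15, 9.45 and 8.94 in control libraries (means 10.31 and 9.31, no overlap; adjusted p = 0.065, limma).

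**Figure D4:**
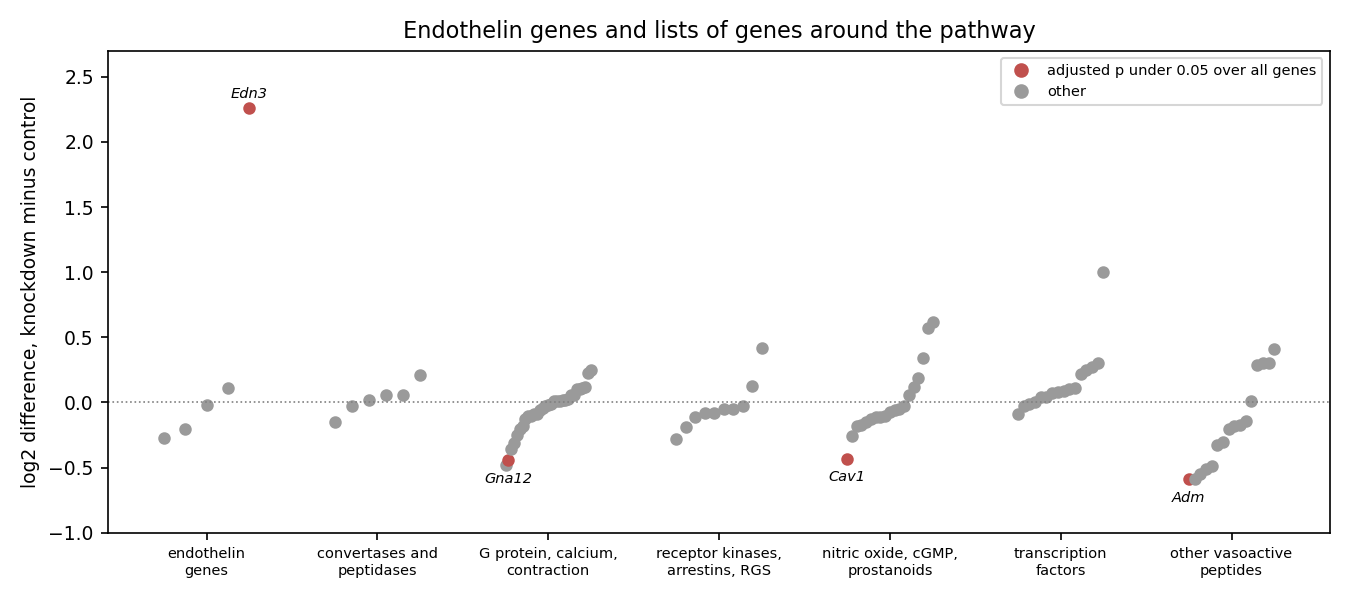
Log2 difference, knockdown minus control (vertical axis), of the 5 endothelin genes and of the 98 genes in 6 lists around the pathway (horizontal axis), each point 1 gene, red where the adjusted p over all genes was under 0.05. Edn3 is at 2.26, and the red points of the other lists are Gna12, Cav1 and Adm at -0.44, -0.43 and -0.59.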

How the data were processed

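Glomerular poly-A RNA of 7 mice (3 knockdown, 4 control) was sequenced. Reads were aligned with BWA to mm10, per the submitters' processing notes. The sources used here state neither its version nor how reads were counted, whether strand was used or how values were normalized. The authors deposited 1 log2-scale value per gene symbol and library, and no source used here states the base of the logarithm, which was read as 2. With no counts, depth and counting error are unknown. Whether mice of a group came from separate litters is not stated.

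Knockdown was compared with control on the deposited log2 values with limma 3.58.1 (R 4.3.3; eBayes with trend) over 12958 genes and with Benjamini-Hochberg adjustment (threshold 0.05). A filter (above the library minimum in at least 3 libraries) removed 0 genes. The fit has 5 residual degrees of freedom, and 4 with title style. In the fit with title style, the coefficient for CB6 had an SD of only 0.0283 log2 units across genes. That fit is therefore a weak check on title style. Whether the values were adjusted for title style before deposit was not tested, and any such adjustment would make the p-values of the reported fit too small. In the libraries titled G, 107 genes differed only by fixed library offsets (within 0.003), none of them an endothelin or pathway gene. Gene models are from GENCODE M21 (GRCm38, the build mm10), which matched 12682 symbols uniquely, and exon length is the union of all exons. Tests were checked on simulated data.

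The genes and lists were chosen with earlier results of these data known. Named genes are the 5 endothelin genes, Shroom3, up to 4 genes past the threshold per list (for pathway lists with none, the 2 with the highest mean), the nearest neighbour of Edn3 and the genes with the most similar profiles. Nos3, Calcrl, Ramp2, Ramp3, Fos and the farther neighbours of Edn3 fall outside this rule and were named after their values were seen. The counts of 1 marker list are not reported here. Alternatives were scaling to equal medians, quantile normalization, omitting the filter, genes above the median by mean, no trend, title style, leaving out libraries and a threshold of 0.1.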

Additional observations from a re-analysis of the deposited data

Results flagged for a closer look

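Among 30 genes examined in the 4 control libraries, 2 had a library that stood apart from the other three by a gap past the 95% critical value of Dixon's ratio of gap to range, which chance passes in about 1 of 20 such groups. For Edn1 the gap was 0.92 of the range: control replicate 1 was at 7.76 and the others at 7.05 to 7.10. For Kap, a proximal tubule marker, the gap was 1.0 of the range, with control replicate 4 at 16.56 and the others at 15.98 each. With the others equal to the digits shown, the ratio is 1.0 whatever the size of the gap. The chance rate above, which is for untied values, therefore does not hold for Kap.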

How the results depend on the processing

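The log2 difference of Edn3 was between 1.89 and 2.38 in the 13 alternatives that hold it, given as a description, since the gene was chosen with this difference known. Those of Ednrb and Ece1 stayed negative (-0.30 to -0.11 and -0.33 to -0.18, 14 alternatives each), and those of Edn1 and Ednra crossed 0 (-0.04 to 0.29 and -0.24 to 0.19). Edn1, Edn3 and Ednra lie below the median of genes by mean. The count of genes past the threshold, 391 in the reported fit, was 191 with title style as a covariate, 40 in the libraries titled G alone, 846 at a threshold of 0.1 and from 134 to 480 with 1 library left out (203, 134 and 147 without knockdown replicates 1, 2 and 3, 146 without control replicate 4). The 3 pathway genes past it became 6 among genes above the median by mean, 1 with no intensity trend, 1 with title style, 0 in the libraries titled G, 10 at a threshold of 0.1 and from 0 to 6 with 1 library left out (0 without knockdown replicate 2 or 3 or control replicate 4, 6 without control replicate 2). The genes above the median are adjusted over fewer genes and the fits with fewer libraries or with title style have fewer degrees of freedom, and otherwise the cause was not tested. With 1 library left out, the log2 difference of Furin ran from -0.29 to 0.000406 (without control replicate 3) and that of Epas1 from -0.19 to 0.0299 (without knockdown replicate 1), and the cause was not tested. By the longest transcript or with no length correction, Ednra came before Edn1 in level in both groups. No paired analysis was possible because the titles give the groups no shared replicate numbers.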
